A study of Mus musculus with 16 samples.

Results

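The 10 genes described here were chosen by the size of their difference between tamoxifen-treated and untreated quadriceps muscle in wild-type mice, in *Mtm1* knockout (KO) mice or in both, and none of them stood in the list of estrogen response genes used here. They are 10 of the 41388 genes in the deposited tables: *Tgm3*, *Mmd2*, *Aqp5*, *BC005764*, *Gria1*, *Gm9747*, *Alox12*, *1700001O22Rik*, *Inf2* and *Exoc3l4*. RNA sequencing was done on quadriceps of individual C57BL/6 mice at 36 days of age in 4 groups: WT, WT given tamoxifen (WT + TAM), *Mtm1* KO, and *Mtm1* KO given tamoxifen (*Mtm1* KO + TAM). The KO lacked exon 4 of *Mtm1* in the whole body, and WT mice were littermates. Tamoxifen was mixed in the diet from day 21 at 40 mg/kg per day, and the untreated groups were not given the drug. Because the members were chosen on the treated and untreated groups, those differences are given as a description, with standard errors and without tests. Differences between genotypes rest on the same libraries, so for the members they are a description too, and counts of members called there only say what the list holds. Adjusted p-values are given only for genes outside the list.

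Tamoxifen is a ligand of the estrogen receptors, which are nuclear receptors that bind DNA and change the transcription of nearby genes, and it acts as an antagonist or an agonist depending on the tissue. The knockout models X-linked myotubular myopathy, a disease of small muscle fibres caused by loss of myotubularin, a phosphoinositide phosphatase. Skeletal muscle is not the tissue in which most of the 10 genes are best known. *Tgm3* is known from skin and hair, *Aqp5* from glands and lung, *Gria1* from brain and *Alox12* from platelets and skin.

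The 16 libraries held 25116179 to 29847222 counts each. Fits used 14 of them, 3 of WT, 4 of WT + TAM, 3 of KO and 4 of KO + TAM, the set used by the study. The library labelled WT replicate 1 held 74 *Mtm1* counts, against 282 to 459 in the other WT and WT + TAM libraries and 53 to 97 in the KO and KO + TAM libraries, so it went against its label, and it was outside the 14 together with the library labelled KO replicate 12. Skeletal muscle markers led every library, with a summed level of 84308 to 100815 RPKM (reads scaled by transcript length and library total) in WT and 61785.6 to 67914.1 RPKM in KO. In bulk muscle, fewer cells of a type and less RNA per cell cannot be told apart.

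The comparison of *Mtm1* KO + TAM with *Mtm1* KO kept 9 of the members after genes with few reads were dropped, and 7 of these differed by at least 1 on the log2 scale, 6 of them higher with the drug and 1 lower. Of all genes tested in that comparison, 3.08% differed by as much. In WT + TAM against WT, 9 members passed the filter and 7 differed by at least 1, with 5 higher and 2 lower, against 4.12% of all genes tested. The treated libraries lay wholly above the untreated ones for 6 members in KO (3.55% of all genes) and for 4 in WT (5.07%), and wholly below for 2 in KO (4.02%) and for 2 in WT (6.50%). The rule of choice used these differences, so the counts only say what the list holds. *1700001O22Rik* did not pass the filter in the KO comparison and *Gria1* did not in the WT comparison.

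The 10 genes fell into patterns that the plot of levels by library shows. *Tgm3*, *Mmd2* and *Aqp5* went from a few reads to at least 19 reads in every library with the drug in both genotypes, and *BC005764* was higher in both with some overlap in WT. *Gria1* was high in the treated KO alone among the 4 groups. *Gm9747* was low in the untreated KO alone, and *Alox12* was high in the untreated KO. *1700001O22Rik* was high in untreated WT alone, and *Inf2* and *Exoc3l4* differed with the drug mainly in WT. The mean of untreated KO lay between those of untreated and treated WT for *Inf2* and *Exoc3l4* and below both for *1700001O22Rik*.

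**Figure D1:**
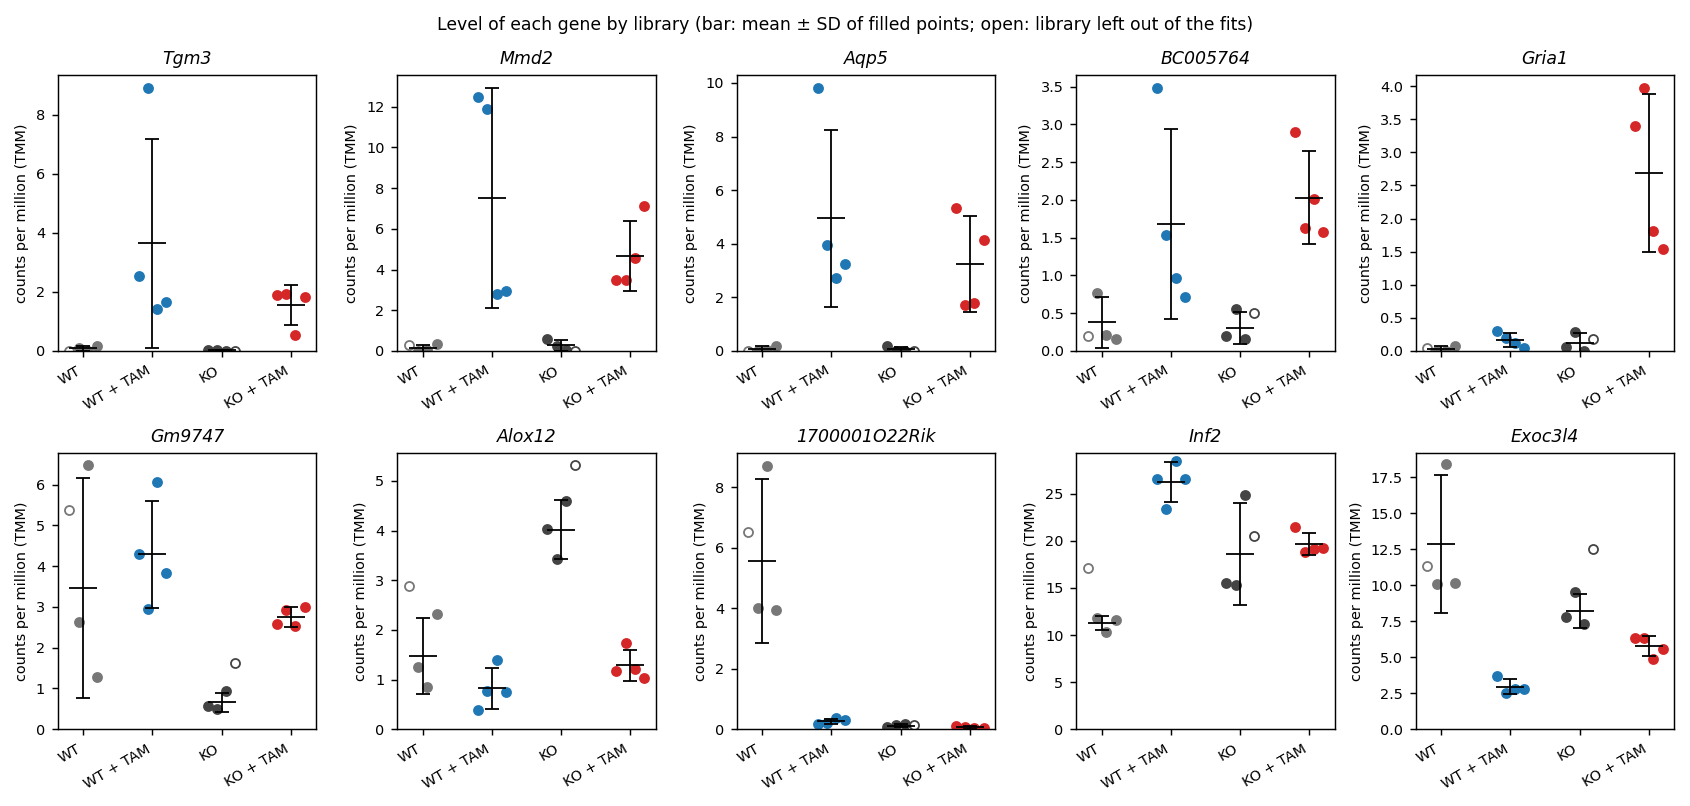
Level of each of the 10 genes in each library, in CPM (counts over a common library size) scaled by the trimmed mean of M-values (TMM), for WT, WT + TAM, KO and KO + TAM. Filled points are the 14 libraries of the fits, bars are their mean ± SD, and open points are KO replicate 12 and WT replicate 1, by their labels. *Gria1* lies between 1.54 and 3.98 in KO + TAM and at or below 0.301 in the other filled points.

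*Tgm3*, at chr2:130012349-130050399 on the plus strand (GRCm38), encodes transglutaminase 3, an enzyme that cross-links proteins in the outer skin and the hair. Its counts were 3, 0 and 4 in the 3 WT libraries and 59, 220, 34 and 40 in the 4 WT + TAM libraries. In KO they were 1, 1 and 0, and in KO + TAM 57, 64, 19 and 55. Every treated library lay above every untreated one in both genotypes, and the highest was WT + TAM replicate 6, with 220 of the 353 reads of its group. With 2 reads in all KO libraries, the ratio of summed counts per total was 67.1, with a 95% exact interval of 18.3 to 558 that covers counting error only. In WT the same ratio was 40.3 (19.3 to 101).

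*Mmd2*, at chr5:142562358-142608800 on the minus strand, encodes a membrane protein of the progestin and adipoQ receptor (PAQR) family. Its counts were 0, 1 and 9 in WT, 290, 294, 66 and 70 in WT + TAM, 17, 7 and 1 in KO, and 104, 116, 160 and 213 in KO + TAM. The groups did not overlap in either genotype. Within WT + TAM the libraries formed a pair near 290 and a pair near 70, a spread of 71.8% of the mean (SD over mean of the scaled level). The log2 difference was 4.05 ± 0.58 (SE) in KO and 5.79 ± 1.11 in WT. Without KO replicate 9, which held 17 of the 25 KO reads, the KO value was 5.10, and the WT value ran from 5.19 without WT replicate 2 to 8.24 without WT replicate 4, which held 9 of the 10 WT reads.

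*Aqp5*, at chr15:99590782-99594829 on the plus strand, encodes aquaporin 5, a water channel of salivary, tear and sweat glands and of lung. Its counts were 0, 1 and 5 in WT and 228, 98, 65 and 78 in WT + TAM. They were 5, 0 and 0 in KO and 160, 57, 62 and 124 in KO + TAM. As with *Tgm3* and *Mmd2*, treated and untreated libraries did not overlap. The log2 difference was 5.78 ± 1.08 in KO and 5.89 ± 1.00 in WT. All 5 KO reads came from KO replicate 9, and without it the fitted value was 9.68. In WT, replicate 4 held 5 of the 6 reads, and the WT value was 7.64 without it and 5.30 without replicate 2. Summed counts gave ratios of 55.5 (23.6 to 172) in KO and 62.4 (28.5 to 171) in WT.

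The reference promoters of *Tgm3* and *Mmd2* are shown because these are 2 of the 3 genes that went from near 0 in both genotypes, and because their windows hold bases free of annotated exons, which the window of *Aqp5* nearly lacks. Both are from RefSeq (GRCm38.p6), 5′ to 3′ on the strand of the gene, ending at the last base before an annotated exon or the start. Capitals mark TGACC, the core of the estrogen response element (ERE). The *Tgm3* window is chr2:130012090-130012339 on the plus strand and the *Mmd2* window is chr5:142608801-142609002 on the minus strand.
Tgm3: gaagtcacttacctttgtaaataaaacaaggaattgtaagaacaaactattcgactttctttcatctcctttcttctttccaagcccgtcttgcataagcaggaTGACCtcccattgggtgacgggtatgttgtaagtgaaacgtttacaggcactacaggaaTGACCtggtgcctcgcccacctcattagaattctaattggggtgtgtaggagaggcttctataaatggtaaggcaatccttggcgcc
Mmd2: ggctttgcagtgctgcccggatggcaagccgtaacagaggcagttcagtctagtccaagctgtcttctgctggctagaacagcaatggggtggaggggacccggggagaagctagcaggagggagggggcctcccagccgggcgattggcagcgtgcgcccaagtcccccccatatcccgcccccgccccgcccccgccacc
The core TGACC was searched on both strands in the 300 bases around the start, and it was found at 146 and 87 bases before the start in *Tgm3* and not in *Mmd2*. Windows were at hand for 8 of the 10 members, and 5 of the 8 held the core (*Tgm3*, *Aqp5*, *1700001O22Rik*, *Exoc3l4* and *BC005764*), against 40.2% of 27025 promoters, 1 for each gene. The full ERE, GGTCANNNTGACC, was in 0 of the 8 windows and in 0.0666% of all promoters. The AP-1 motif TGANTCA was also in 0 of 8, against 7.93% of all. A match to these letters is not a site of binding, and their absence in this window says nothing of sites elsewhere.

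*BC005764*, now named *Plppr3*, lies at chr10:79860475-79874634 on the minus strand and encodes a membrane protein related to the lipid phosphate phosphatases, known mainly from neurons. Its counts were 21, 5 and 4 in WT and 81, 38, 23 and 17 in WT + TAM, so that WT replicate 2 lay within the treated range. In KO they were 6, 17 and 5 and in KO + TAM 87, 54, 70 and 47, without overlap. The log2 difference was 2.70 ± 0.48 in KO and 2.10 ± 0.71 in WT, and the WT value was 3.17 without WT replicate 2 and 1.46 without WT + TAM replicate 5. Without KO replicate 10, which held 17 of the 28 KO reads, the KO value was 3.46. Of its 4357 annotated exon bases, 410 lay in exons of other genes, *Ptbp1* and *Prtn3* on the opposite strand. The strand setting of the counting is not given in the sources used here, so reads in those bases cannot be told apart. *Ptbp1* differed by -0.04 ± 0.18 in KO and 0.06 ± 0.12 in WT (edgeR adjusted p 0.980 and 0.918), and *Prtn3* by 0.45 ± 0.94 and 3.004 ± 1.13 (adjusted p 0.952 and 0.344).

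*Gria1*, at chr11:57011387-57330244 on the plus strand, encodes the GluA1 subunit of the AMPA-type glutamate receptor, the main fast excitatory receptor of the brain. Its counts were 0, 0 and 2 in WT, 7, 5, 3 and 1 in WT + TAM, 2, 9 and 0 in KO, and 102, 132, 63 and 46 in KO + TAM. The 4 KO + TAM libraries lay far above all others, and the other 3 groups lay between 0 and 9 reads. In KO the log2 difference with the drug was 4.42 ± 0.78, and it was 6.19 without KO replicate 10, which held 9 of the 11 KO reads. In WT, where the untreated libraries held 2 reads, the ratio of summed counts was 6.39 with an interval of 1.502 to 57.3. Between the treated groups the log2 difference, KO + TAM over WT + TAM, was 3.95 ± 0.55, with 74.8 ± 33.9 against 4.72 ± 3.09 scaled counts (SD, n = 4 and 4). *Gria1* passed the filter there only through KO + TAM, the group whose level chose it.

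The neuron markers overlapped between the groups that *Gria1* separated. The summed level of the 8 neuron markers was 1.95 to 3.62 RPKM in KO + TAM, 3.04 to 4.12 RPKM in KO, 1.82 to 3.68 RPKM in WT + TAM and 2.15 to 3.90 RPKM in WT, and of the 4 tested in KO + TAM against KO none passed the threshold (an adjusted p of 0.01). In that comparison 0% of 15062 genes passed, so the absence of a call sets no gene apart. Of the 13 relatives of *Gria1* in the table, the other AMPA receptor subunits and their auxiliary proteins, 3 passed the filter in KO + TAM against KO (median log2 difference -0.38, all genes -0.01). The most abundant relative was *Cacng7*, which encodes a TARP auxiliary subunit, at a mean of 4.24 RPKM over the 14 libraries. *Cacng7* was lower in KO than in WT (-1.16 ± 0.18, adjusted p = 0.00553) and lower in KO + TAM than in WT + TAM (-1.18 ± 0.17, adjusted p = 0.00118).

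*Gm9747* is a predicted gene with 1 exon at chr1:82233112-82235933 on the plus strand. Its counts were 72, 151 and 34 in WT and 100, 73, 144 and 92 in WT + TAM, with overlap. In KO they were 17, 15 and 29, and in KO + TAM 77, 97, 88 and 90. The KO libraries lay below all others, and the KO + TAM libraries lay within the range of WT. The log2 difference with the drug was 2.03 ± 0.30 in KO and 0.32 ± 0.46 in WT, and the WT value was -0.060 without WT replicate 4 and 1.10 without WT replicate 3. The log2 difference between untreated KO and untreated WT was -2.36 ± 0.57, and it was -1.57 without WT replicate 3. In the treated pair the difference was -0.66 ± 0.24.

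All 2822 exon bases of *Gm9747* lie inside exons of *Irs1* on the opposite strand, the gene of the insulin receptor substrate 1. Without a known strand setting, its reads cannot be told apart from those of *Irs1*. *Irs1* held 2200 to 4774 counts in the 14 libraries, and *Gm9747* had 0.512% to 1.31% of the *Irs1* count in KO, 2.201% to 3.12% in KO + TAM, 0.902% to 3.16% in WT and 2.86% to 4.55% in WT + TAM. The share in KO + TAM was above that in KO in every library. *Irs1* itself differed with the drug by 0.23 ± 0.19 in KO (adjusted p = 0.857) and -0.46 ± 0.19 in WT (adjusted p = 0.439), and between untreated KO and WT by -0.82 ± 0.21 (adjusted p = 0.0366).

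*Alox12*, at chr11:70241457-70255353 on the minus strand, encodes the platelet-type 12-lipoxygenase, which makes 12-HPETE from arachidonic acid. Its counts were 34, 20 and 61 in WT, 9, 19, 33 and 18 in WT + TAM, 120, 105 and 144 in KO, and 35, 58, 42 and 31 in KO + TAM. Every KO library lay above every other library, and the KO + TAM libraries lay within the range of WT. The log2 difference with the drug was -1.65 ± 0.26 in KO. In WT it was -0.86 ± 0.50, with overlap. The log2 difference between untreated KO and untreated WT was 1.43 ± 0.37, 113 ± 15.9 against 41.7 ± 22.1 scaled counts (SD, n = 3 and 3). In the treated pair it was 0.62 ± 0.39.

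The summed level of platelet markers in KO also lay above its range in WT, and none of the 3 markers tested passed the threshold in KO against WT (3.60% of all genes did). The sum over 10 platelet markers, led by *Pf4*, was 13.7 to 19.7 RPKM in WT, 4.85 to 21.9 RPKM in WT + TAM, 26.0 to 51.6 RPKM in KO and 19.5 to 49.2 RPKM in KO + TAM. The KO and KO + TAM ranges of this sum overlapped over most of their width, while those of *Alox12* did not overlap. In KO + TAM against KO, 3 platelet markers were tested, and their estimates were negative, as that of *Alox12* was. Their median log2 difference was -0.53 (from -0.74 to -0.15), against -0.01 for all genes. The part of platelets in the level of *Alox12* was not tested. Of the 7 other genes of the lipoxygenase list in the table, 3 passed the filter in KO + TAM against KO and none the threshold, as no gene did. *Alox5ap*, which encodes the 5-lipoxygenase activating protein, was the most abundant at 12.5 RPKM, and *Alox15*, the nearest tested gene to the right of *Alox12*, differed by -0.92 ± 0.61 (adjusted p = 0.817).

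*1700001O22Rik* is a protein-coding gene without a settled function at chr2:30794769-30803661 on the minus strand. Its counts were 110, 203 and 104 in WT and 4, 5, 9 and 7 in WT + TAM. In KO they were 2, 4 and 5, and in KO + TAM 3, 3, 1 and 1. The WT libraries lay above all of the others, and treated WT and untreated KO were alike in holding fewer than 10 reads each. The log2 difference in WT with the drug was -4.38 ± 0.42. The log2 difference between untreated KO and untreated WT was -5.47 ± 0.55, with 3.36 ± 1.35 against 155 ± 73.2 scaled counts (SD, n = 3 and 3), and it was between -5.73 and -5.02 without 1 library. The gene passed the filter there only through WT, whose level chose it. In KO the summed counts were 11 without and 8 with the drug, a ratio of 0.501 (0.175 to 1.37), so at this depth a difference was not detectable.

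*Inf2*, at chr12:112588784-112615557 on the plus strand, encodes a formin that assembles and cuts actin filaments and is mutated in hereditary kidney and nerve disease. Its counts were 323, 242 and 306 in WT, 616, 577, 675 and 636 in WT + TAM, 464, 471 and 779 in KO, and 642, 626, 668 and 574 in KO + TAM. Treated WT lay wholly above untreated WT, while in KO the treated libraries lay inside the untreated range. The log2 difference with the drug was 1.21 ± 0.13 in WT and 0.06 ± 0.18 in KO. The KO value changed sign without KO replicate 9 (-0.058) or KO replicate 10 (-0.051), so no direction can be given for *Inf2* in KO. Untreated KO and WT differed by 0.72 ± 0.20 and KO + TAM and WT + TAM by -0.43 ± 0.11.

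*Exoc3l4*, at chr12:111417017-111431678 on the plus strand, encodes a protein related to a subunit of the exocyst, the complex that tethers secretory vesicles to the plasma membrane. Its counts were 275, 429 and 266 in WT, 86, 63, 66 and 67 in WT + TAM, 233, 293 and 228 in KO, and 189, 211, 170 and 166 in KO + TAM. WT + TAM was the lowest group, and its 4 libraries lay below every other library. The log2 difference with the drug was -2.12 ± 0.24 in WT and -0.53 ± 0.18 in KO, without overlap in either. KO + TAM and WT + TAM differed by 0.95 ± 0.19, with 161 ± 21.1 against 83.3 ± 14.4 scaled counts (SD, n = 4 and 4). Untreated KO and WT differed by -0.64 ± 0.25.

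*Exoc3l4* has a neighbour of its own family. *Tnfaip2*, which encodes another protein related to the exocyst, starts 10791 bases to its right, and the antisense gene *Gm10425* shares 888 of the 5650 annotated exon bases of *Exoc3l4*, so their reads cannot be told apart there. *Tnfaip2* held 2326, 3069 and 3847 counts in WT and 509, 730, 1442 and 1505 in WT + TAM, without overlap. Its log2 difference was -1.47 ± 0.35 in WT (adjusted p = 0.133) and -0.70 ± 0.24 in KO (adjusted p = 0.475), and neither passed the threshold. *Gm10425* held 2 to 49 counts in the 14 libraries, and differed by -1.96 ± 0.65 in WT (adjusted p = 0.291) and -0.06 ± 0.55 in KO (adjusted p = 0.996).

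**Figure D2:**
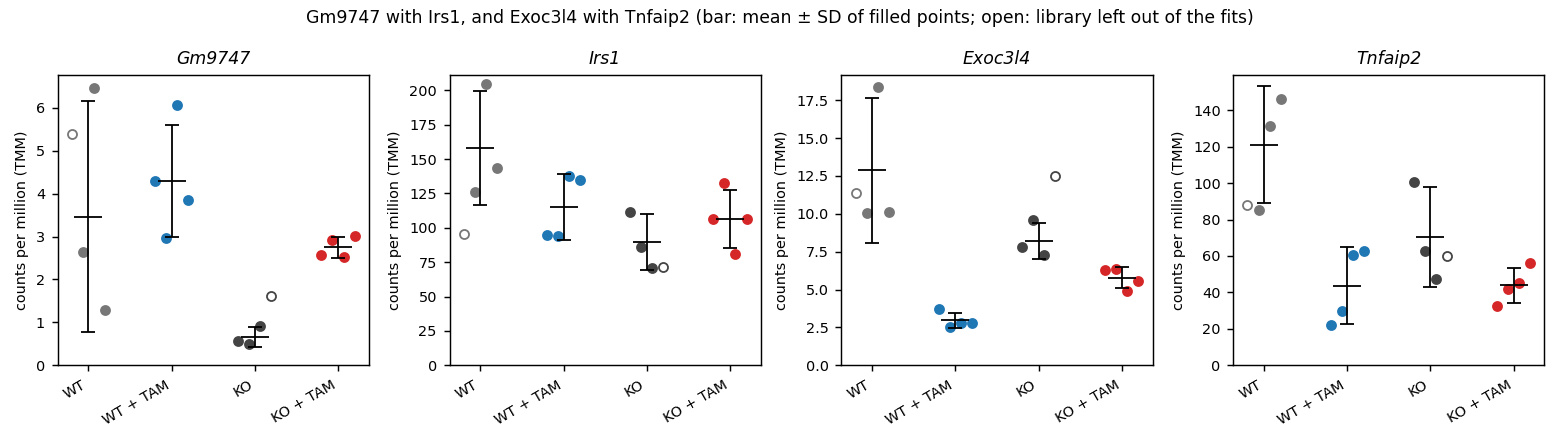
Levels by library of *Gm9747* and of *Irs1*, whose exons cover it, and of *Exoc3l4* and its neighbour *Tnfaip2*, in CPM scaled by TMM. Filled points are the 14 libraries of the fits, bars their mean ± SD, and open points the 2 libraries left out. *Gm9747* is lowest in KO (0.489 to 0.927), while *Exoc3l4* is lowest in WT + TAM (2.55 to 3.70).

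In 1 fit over all 4 groups, in which all 10 members passed the filter, the differences with the drug can be set side by side on 1 scale. For *Aqp5* they were 5.78 ± 1.19 in KO and 5.90 ± 1.11 in WT, a gap (KO minus WT) of -0.12 ± 1.62. *BC005764* had a gap of 0.60 ± 0.91, and *Alox12* one of -0.79 ± 0.56. *Mmd2*, *Tgm3* and *Gria1*, with few untreated reads, had gaps of -1.73 ± 1.32, 0.63 ± 1.92 and 1.94 ± 1.71. In WT the drug difference of *Gria1* was 2.49 ± 1.51 in this fit. For *Gm9747* (1.72 ± 0.59) the drug difference was the larger one in KO. For *Inf2* (-1.13 ± 0.22), *Exoc3l4* (1.61 ± 0.31) and *1700001O22Rik* (3.49 ± 0.80) the drug difference was the larger one in WT. In KO, *1700001O22Rik* held 11 reads without and 8 with the drug, so its KO value and its gap rest on few reads. The gap is made of the values that chose the members, so it has no test here.

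**Figure D3:**
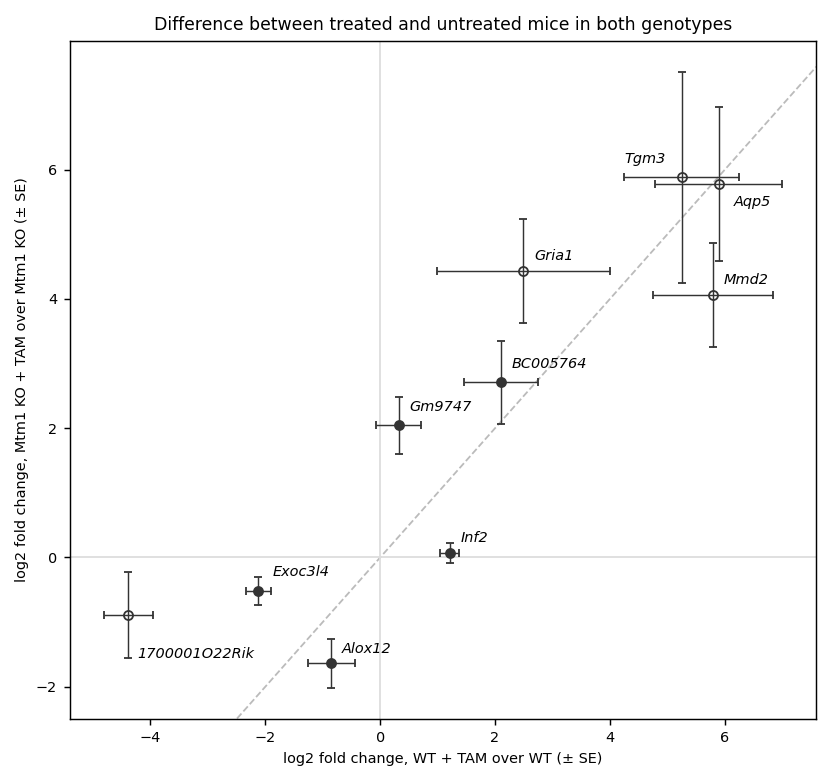
Log2 fold change of treated over untreated libraries in WT (x axis) and in *Mtm1* KO (y axis) for the 10 genes, from 1 fit of all 4 groups, with standard errors. The dashed line marks equal differences, and the open points, *Tgm3*, *Mmd2*, *Aqp5*, *Gria1* and *1700001O22Rik*, have a group with a mean under 5 reads a library, so their fitted values depend on the prior count. *Inf2* lies at 1.21 in WT and 0.07 in KO, and *Gm9747* at 0.32 in WT and 2.04 in KO.

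Differences between genotypes share their libraries with the rule, and the groups whose high or low level chose a gene are in them, so the counts of calls below say only what the list holds. Without the drug, 5 members passed the filter and 1, *1700001O22Rik*, was past the threshold of 0.01, where 3.60% of 14740 genes were. *Tgm3*, *Mmd2*, *Aqp5*, *Gria1* and *BC005764* had too few reads without the drug to be tested. With the drug, 9 members passed the filter and 2, *Gria1* and *Exoc3l4*, were past it, where 6.72% of 14563 genes were. *Tgm3* (-1.24 ± 0.58), *Mmd2* (-0.70 ± 0.47) and *Aqp5* (-0.63 ± 0.46) had negative estimates of KO + TAM over WT + TAM, and their libraries overlapped. The value of *Tgm3* was -0.30 without WT + TAM replicate 6. *BC005764* differed by 0.26 ± 0.45, and by 0.90 without WT + TAM replicate 5. Scaling by library size alone moved the median log2 difference of all genes from 0.02 to 0.33 without the drug and from -0.01 to 0.27 with it, and the calls from 282 higher and 249 lower to 1023 and 140, and from 498 and 481 to 1657 and 217. None of the directions given here for a member turned under that scaling.

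**Figure D4:**
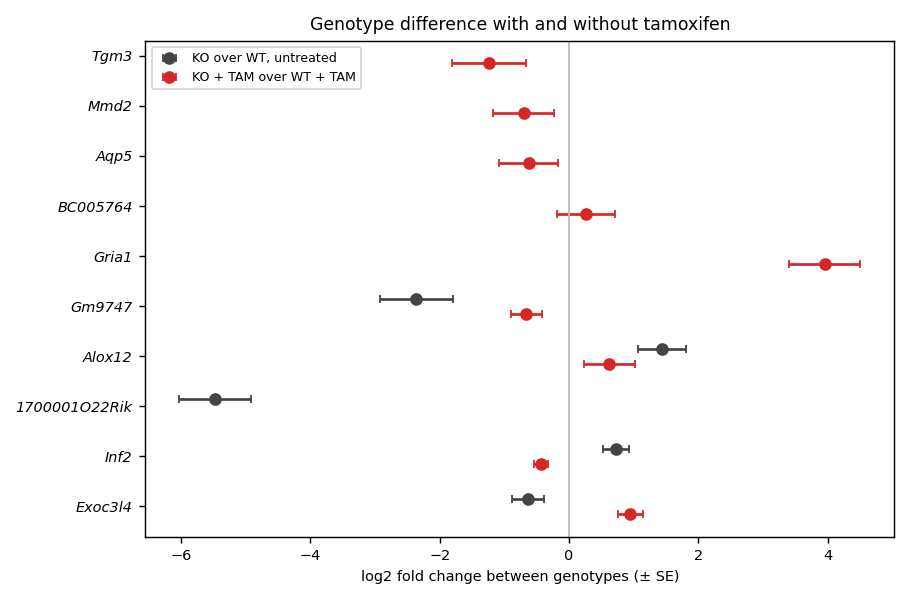
Log2 fold change of KO over WT without tamoxifen (dark) and of KO + TAM over WT + TAM (red) for the members that passed the filter, with standard errors from edgeR's quasi-likelihood fit. The values farthest from 0 are those of *1700001O22Rik* at -5.47 without the drug and of *Gria1* at 3.95 with it, and *Inf2* and *Exoc3l4* have values of opposite sign without and with it.

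Replicate 12, labelled KO, and replicate 1, labelled WT, took no part in the study's calls, but they are among the columns on which the members were chosen, so their values are a description. In KO replicate 12 the counts were 0 for *Tgm3*, *Mmd2* and *Aqp5*, 5 for *Gria1*, 14 for *BC005764*, 148 for *Alox12*, 348 for *Exoc3l4* and 45 for *Gm9747*. *Gm9747* lay between the ranges of the untreated and treated groups, at 1.62 CPM against 0.489 to 0.927 in KO and 2.52 to 3.01 in KO + TAM. In WT replicate 1, *Inf2* also lay between, at 17.1 against 10.4 to 11.8 in WT and 23.4 to 28.4 in WT + TAM. This library held 131 counts of *1700001O22Rik*, as WT libraries did, and *Mtm1* as KO libraries did.

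Relatives of the members did not pass the threshold with the drug. Over 8 families (transglutaminases, PAQR receptors, aquaporins, AMPA receptor subunits, lipoxygenases, formins, exocyst and related proteins, and lipid phosphatase-related proteins), 47 of 74 relatives in the table were tested in KO + TAM against KO and 44 in WT + TAM against WT, and 0 passed in either (edgeR, lowest adjusted p 0.350 and 0.133). Of all genes, 0% passed in KO and 0.131% in WT. In KO, 1137 genes had an unadjusted p under 0.05, and DESeq2 and edgeR's exact test each called 72 genes, against 0 of 15062 in the quasi-likelihood test.

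The families' most abundant genes were above the members. *Tgm2*, the ubiquitous transglutaminase, was at 21.2 RPKM over the 14 libraries, against 0.806 ± 0.791 for *Tgm3* in WT + TAM (SD, n = 4). *Aqp1*, the water channel of blood vessels, was at 105 RPKM, against 2.69 ± 1.74 for *Aqp5* in WT + TAM. *Adipor1*, an adiponectin receptor of the PAQR family, was at 60.4 RPKM, against 2.07 ± 1.47 for *Mmd2*. The formin *Fhod1* was at 11.7 RPKM, against at most 6.01 RPKM for *Inf2* in any library. Within WT + TAM the formins were closer, at 9.52 ± 0.806 RPKM for *Fhod1* and 5.21 ± 0.427 RPKM for *Inf2* (SD, n = 4).

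Between genotypes, 3 of 46 relatives passed without the drug and 6 of 46 with it, where 3.60% and 6.72% of all genes tested did. *Exoc7*, a subunit of the exocyst, was lower in KO without the drug (-1.30 ± 0.19, adjusted p = 0.00410) and with it (-0.89 ± 0.12, adjusted p = 0.000869). *Ppap2a*, a lipid phosphate phosphatase, was higher in KO by 0.77 ± 0.12 (adjusted p = 0.00553) and 0.84 ± 0.13 (adjusted p = 0.00214). In the PAQR family, *Paqr8* (1.62 ± 0.30, adjusted p = 0.00525) and *Paqr7* (0.87 ± 0.18, adjusted p = 0.00814) were higher and *Adipor2*, an adiponectin receptor, lower (-0.70 ± 0.14, adjusted p = 0.00668) in KO + TAM than in WT + TAM. *Cacng7*, given above, was the remaining one in both.

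Of 21 estrogen response genes in the table, 16 were tested in each drug comparison. In WT + TAM against WT, 2 passed, *Oxtr*, the oxytocin receptor (5.41 ± 0.44, adjusted p = 0.000881), and *Pgr*, the progesterone receptor (adjusted p = 0.00447), both higher with the drug. None passed in KO + TAM against KO, where log2 differences of the list reached 5.05 and its lowest adjusted p, 0.0600, was the lowest of all genes. Of all genes tested, 0.131% passed in WT and 0% in KO, so the absence of a call in KO sets no gene apart. Between treated genotypes, *Myc* was higher (1.26 ± 0.20, adjusted p = 0.00232) and *Esr1*, the estrogen receptor alpha, lower in KO + TAM (-0.92 ± 0.18, adjusted p = 0.00704).

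Markers of skin and glands had low sums in WT and WT + TAM and higher sums in KO and KO + TAM. Among 12 keratinocyte markers, *Dsg3* and *Flg* had 0 counts in the 14 libraries, and *Krt5* and *Krt14* had 4 and 3 in all. The keratinocyte sum was 3.06 to 4.58 RPKM in WT, 2.98 to 4.10 in WT + TAM, 7.23 to 14.1 in KO and 7.83 to 16.4 in KO + TAM, and *Perp* and *Trp63* were higher in KO + TAM than in WT + TAM (2.11 ± 0.26 and 1.86 ± 0.30, adjusted p 0.000705 and 0.00267). *Krt10*, a keratin named after its values were seen, held 311 reads in WT and 380 in WT + TAM, more than *Perp* with 208 and 238. The sum over 11 markers of glandular epithelium was 0.657 to 2.48 RPKM in WT, 0.895 to 1.86 in WT + TAM, 18.9 to 32.7 in KO and 11.6 to 42.7 in KO + TAM. Most reads of this list in KO and KO + TAM, 2589 and 3685, were of *Krt18*, a keratin (5.22 ± 0.40 in KO against WT, adjusted p = 0.000274, and 6.19 ± 0.61 in the treated pair, adjusted p = 9.76e-05), while in WT and WT + TAM it held 58 and 36, fewer than *Krt19* with 104 and 150. The ranges of these sums did not overlap between untreated WT and untreated KO and did overlap between untreated and treated mice of either genotype, and no marker of either list passed the threshold in a drug comparison, where 0% and 0.131% of all genes did.

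The remaining lists also had no gene past the threshold in a drug comparison. The Schwann cell sum was 61.2 to 147 RPKM in WT, 101 to 114 in WT + TAM, 106 to 135 in KO and 119 to 193 in KO + TAM. Fat cell markers ran from 328 to 2210 RPKM in WT, 887 to 3293 in WT + TAM, 1422 to 2720 in KO and 1390 to 2021 in KO + TAM. Immune markers were 6.16 to 9.04 RPKM in WT, 3.24 to 8.19 in WT + TAM, 13.98 to 26.4 in KO and 10.4 to 37.1 in KO + TAM. Red blood cell markers were 89.4 to 206 RPKM in WT, 74.2 to 174 in WT + TAM, 97.5 to 370 in KO and 113 to 231 in KO + TAM. Among muscle markers, *Pygm*, muscle glycogen phosphorylase, was lower in KO (-1.17 ± 0.17, adjusted p = 0.00438), and *Pygm*, *Myh4* and *Ckm* were lower in KO + TAM than in WT + TAM (-1.11 ± 0.15, -1.24 ± 0.16 and -0.87 ± 0.18, adjusted p 0.000936, 0.000833 and 0.00812). The 8 muscle markers did not all go this way. Their log2 differences ran from -1.30 to 1.21 (median -0.81) in KO against WT. In the treated pair they ran from -1.24 to 1.51 (median -0.67). Reads of *Myh1* and *Myh2* were more in KO than in WT (537107 against 234788 and 158042 against 59342), and those of the others fewer.

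Per length, the members were spread widely among the 24379 genes with a count. Their ranks by mean RPKM ran from 6258 (*Inf2*) to 19321 (*1700001O22Rik*) in KO + TAM. In WT they ran from 6180 (*Exoc3l4*) to 20350 (*Gria1*). In KO + TAM the highest was *Inf2* at 4.68 ± 0.202 RPKM (SD, n = 4), followed by *Exoc3l4* (2.16 ± 0.230), *Aqp5* (2.09 ± 1.05), *Mmd2* (1.54 ± 0.542) and *Gm9747* (1.07 ± 0.102). *Exoc3l4*, *Aqp5* and *Mmd2* did not differ beyond their spread, nor did *Mmd2* and *Gm9747*. Lower still were *BC005764* (0.507 ± 0.137), *Gria1* (0.486 ± 0.217), *Tgm3* (0.406 ± 0.170) and *Alox12* (0.348 ± 0.0957), which also overlapped. *1700001O22Rik* was last at 0.0248 ± 0.0142. In WT the order began with *Exoc3l4* (3.98 ± 1.16), *Inf2* (2.27 ± 0.312), *1700001O22Rik* (1.80 ± 0.732) and *Gm9747* (1.09 ± 0.770), and *Gria1* was last at 0.00400 ± 0.00693.

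The nearest genes on either side of each member, among those that passed the filter over the 4 groups, are given for their place only. With the drug, 0% of all genes passed the threshold in KO and 0.131% in WT. Genes with fewer reads were passed over, so other genes may lie closer. Distances ran from 1615 bases (*Rnasek* and *Alox12*) to 1506549 bases (*G3bp1* and *Gria1*). With the genes that overlap a member, 24 neighbours passed the filter over the 4 groups. Of these, 23 were tested in KO + TAM against KO and 21 in WT + TAM against WT, and none passed, the lowest adjusted p being that of *Tnfaip2* in both. They were *Stk35* and *Snrpb* beside *Tgm3*, *Radil* and *Wipi2* beside *Mmd2*, *Faim2* and *Racgap1* beside *Aqp5*, *E130317F20Rik* and *Cfd* beside *BC005764*, *G3bp1* and *Fam114a2* beside *Gria1*, *Dock10* and *Rhbdd1* beside *Gm9747*, *Rnasek* and *Alox15* beside *Alox12*, *Gm14488* and *Ntmt1* beside *1700001O22Rik*, *A530016L24Rik* and *Adssl1* beside *Inf2*, and *Cdc42bpb* and *Tnfaip2* beside *Exoc3l4*. *Exoc3l4* and *Inf2* lie on the same chromosome, 1157106 bases apart. Their differences with the drug in WT had opposite signs.

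The genes with the most similar pattern were found by Pearson correlation of log2 CPM (prior count 2) over the 14 libraries, against 15555 other genes. The libraries fall into 4 groups and the members were chosen on those groups, so r describes a shared pattern of groups and has no p. *Tgm3* was most like *Flrt1* (0.93), *Aqp5* (0.93) and *Pgr* (0.92). *Mmd2* was most like *Aqp5* (0.96), *Oxtr* (0.92) and *Pts* (0.92), and *Aqp5* most like *Mmd2* (0.96), *Gm16485* (0.94) and *Pgr* (0.94). *Mmd2* and *Aqp5* were each most like the other, *Aqp5* was also among the 3 nearest of *Tgm3*, and the other nearest genes of the 3 included *Pgr* and *Oxtr* of the estrogen response list.

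The other members had no member among their 3 most similar genes. *Gria1* was most like *Zeb2os* (0.90), *Dio3* (0.89) and *Lamb3* (0.88), and *BC005764* most like *Gm15658* (0.88), *Sart1* (0.88) and *Gm15635* (0.85). *Gm9747* was most like *Serinc4* (0.95), *Gm15932* (0.95) and *Gm11100* (0.94), and *Alox12* most like *Msx1* (0.93), *Trpm2* (0.91) and *Gm8129* (0.90). The genes whose drug difference was the larger one in WT had other partners. *1700001O22Rik* was most like *Amd1* (0.95), *Vps9d1* (0.94) and *Il4i1* (0.94), *Inf2* most like *Jup* (0.97), *Odc1* (0.88) and *Eif2b3* (0.87), and *Exoc3l4* most like *Ace* (0.92), *Cacnb3* (0.89) and *E130006D01Rik* (0.89). Between members, *Inf2* and *Exoc3l4* had r = -0.88 and *Gm9747* and *Alox12* r = -0.83, the strongest inverse pairs among the 10.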

How the data were processed

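Raw read counts per gene and RPKM values were deposited for 16 quadriceps libraries. According to the submitters' processing notes and methods, the authors demultiplexed reads with bcl2fastq 2.17 and aligned them to GRCm38 with STAR 2.5.0c, and read counts per gene were made with HTSeq. Cufflinks 2.2.1 is also listed. No source used here gives the annotation, the counting mode or the strand setting. Deposited counts were whole numbers without normalization, and the deposited RPKM values were proportional within each gene to these counts over the library total. Counts were tested with edgeR 4.0.16 (quasi-likelihood test, TMM, filterByExpr with a minimum count of 10, pairwise fits) in R 4.3.3 over all genes kept, with Benjamini-Hochberg adjustment and a threshold of 0.01. Scaled counts are counts at the mean library size after TMM, and standard errors come from the fitted model. The scripts were checked on counts drawn with known changes. Ratios of low counts have exact 95% intervals, which cover counting error only, as do all intervals given. As alternatives, DESeq2 1.42.0 and the exact test of edgeR were run, with fits under other scalings, without the filter, at a threshold of 0.05, over all 4 groups at once, on all 16 libraries and without each library in turn. The methods describe the libraries as individual mice. Positions came from GENCODE vM21 (GRCm38), in which 40254 of 41388 identifiers were found, and promoters from RefSeq (GRCm38.p6). Named genes were the members, family and marker genes past the threshold with the most abundant of each family, and the 3 most similar genes. The nearest genes that passed the filter over the 4 groups were named too. Members and lists were chosen with earlier results of these data known.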

Additional observations from a re-analysis of the deposited data

Results flagged for a closer look

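Among 20 groups of 4 libraries, 3 held a library that stood apart from the others by Dixon's criterion (gap over range above the 95% critical value), where about 1 in 20 would do so by chance. *Tgm3* had a high library in WT + TAM, replicate 6, at 8.91 CPM (gap over range 0.852). It also had a low library in KO + TAM, replicate 15, at 0.545 (0.936). *Inf2* had a high library in KO + TAM at 21.4 (0.869).

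The difference between genotypes ran in opposite directions without and with the drug for *Inf2* (0.72 in KO against WT, and -0.43 in KO + TAM against WT + TAM) and for *Exoc3l4* (-0.64 and 0.95), in that no library of one group overlapped the other in either pair. This opposition was not tested, since it is also the gap between the drug differences that chose the members. Scaled by library size alone, *Inf2* overlapped between the treated groups (20.3 to 22.4 against 21.5 to 26.3 CPM) and *Exoc3l4* between the untreated groups (8.09 to 11.3 against 9.65 to 15.6).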

How the results depend on the processing

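The count of genes called in KO against WT was 531, and was 1885 at a threshold of 0.05, 1678 with DESeq2, 1452 with the exact test, 1163 with library size only, 1096 without the filter, 987 in 1 fit of all 4 groups, 211 with 16 libraries, and 182 to 363 without 1 library. In KO + TAM against WT + TAM it was 979, and was 2476 at 0.05, 1995 with DESeq2, 1826 with the exact test, 1874 with library size only, and 424 to 921 without 1 library. In KO + TAM against KO it was 0, and was 72 with DESeq2, 72 with the exact test, 12 without the filter, 2 in 1 fit of all 4 groups, and 0 to 1 without 1 library. In WT + TAM against WT it was 19, and was 80 at 0.05, 214 with DESeq2, 178 with the exact test, 81 without the filter, 39 in 1 fit of all 4 groups, 12 with 16 libraries, and 2 to 21 without 1 library, 2 being the count without WT replicate 4. Without the filter more genes were tested. Otherwise the cause was not tested. The members called in KO against WT numbered 1 of 5 tested, where 531 of 14740 genes were called. They numbered 4 at 0.05, 3 with DESeq2 and 3 with the exact test, where 1885, 1678 and 1452 of 14740 genes were. Without the filter and in 1 fit all 10 were tested and 2 called, where 1096 of 22672 and 987 of 15556 genes were. In each fit without 1 library, 1 was called, where 182 to 363 genes were. These counts only say what the list holds. In the treated pair the members called numbered 2 of 9 tested, where 979 of 14563 genes were called. Without 1 library they numbered 1 to 2, where 424 to 921 genes were. *Exoc3l4* kept its call in 1 of 8 such fits, the one without WT + TAM replicate 5. Adding the 2 untreated libraries leaves the fit of the treated pair as it was, so it is no alternative there. Members with a difference of at least 1 with the drug numbered 7 in KO (7 in each fit without 1 library) and 7 in WT (7 to 9). In the main fits 9 members were tested in each, and 3.08% and 4.12% of all genes differed by as much. The sign of the drug difference turned for *Inf2* in KO without KO replicate 9 (-0.058) or 10 (-0.051), with a range of -0.058 to 0.34 without 1 library, and for *Gm9747* in WT without WT replicate 4 (-0.060; range to 1.10). Of 443 values of single members under an alternative, 416 kept their side of the threshold or moved by less than the spread. No paired analysis was possible because the replicate numbers run on over the groups and no number is shared. Depth limits *Tgm3* in KO and *Gria1* in WT, with 2 reads in each untreated group, and *1700001O22Rik* in KO, with 11.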
